A study of Mus musculus with 12 samples.

Results

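The gene set described here comprised 10 genes of autophagy and mitophagy, chosen by symbol: Bnip3l, Fundc1, Pink1, Sqstm1, Becn1, Atg5, Atg7, Ulk1, Map1lc3b and Rb1cc1. All 10 listed symbols were present among the 11385 genes of the count table. They were measured by RNA sequencing in mouse oocytes at the germinal-vesicle stage, the stage arrested in meiotic prophase inside the follicle, from unprimed mice aged 21 to 23 days. The mice, all labelled C57BL/6J, were WT, Mfn1-/-, Mfn2-/- or Mfn1&2-/- (both genes lost), which gave 4 groups with n = 3 libraries per group and 50 oocytes, stripped of their cumulus cells, in each library. The labels name no Cre driver or promoter and do not say in which cells Mfn1 or Mfn2 was deleted, and they leave unsaid whether replicate pools were taken from separate mice. The p-values therefore measured only the spread between these pools, which may be technical.

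Autophagy encloses cytoplasm in a growing double membrane, the phagophore, which closes into an autophagosome and fuses with the lysosome. The ULK1 kinase complex starts the process, a class III PI3-kinase complex built on BECN1 nucleates the membrane, and a ubiquitin-like conjugation system joins LC3 and GABARAP proteins to its lipids. Mitophagy is the same process turned on mitochondria, either through receptors in the outer membrane or through PINK1 and the ubiquitin ligase parkin. The mitofusins MFN1 and MFN2 are outer-membrane GTPases that fuse mitochondria, and both are ubiquitinated by parkin on damaged mitochondria.

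Receptors are tied to the autophagosome by a short stretch of protein, the LC3-interacting region, which docks onto LC3 and GABARAP. Of the 10 genes, 3 encode receptors with such a region. The codons of each are shown because the receptors differ in this docking sequence and are the members whose product selects cargo. Each was read 5′ to 3′ from the protein-coding GENCODE vM21 transcript with the longest reading frame. The 4 codons of the core are in capitals and the flanking codons in lower case.
Bnip3l: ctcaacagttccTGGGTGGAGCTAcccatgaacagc
Fundc1: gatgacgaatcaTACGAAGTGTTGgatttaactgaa
Sqstm1: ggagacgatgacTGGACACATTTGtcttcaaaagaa
The core lay at residues 35 to 38 of 218 in Bnip3l, at residues 18 to 21 of 155 in Fundc1 and at residues 340 to 343 of 442 in Sqstm1. In the membrane receptors Bnip3l and Fundc1 it was thus near the start of the protein, and in the soluble receptor Sqstm1 in its C-terminal part.

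Libraries held 11575357 to 16024893 counts, so that 3 counts, the floor used here, were worth 0.188 to 0.253 CPM (counts scaled to library size and TMM factors). The targeted genes followed the labels: Mfn1 was at 279.7 ± 16.4 CPM in WT, 230.2 ± 14.2 in Mfn2-/-, 18.1 ± 0.696 in Mfn1-/- and 20.1 ± 5.87 in Mfn1&2-/- (SD, n = 3 each). Mfn2 was at 76.3 ± 9.75 CPM in WT, 66.5 ± 3.74 in Mfn1-/-, 11.2 ± 2.19 in Mfn2-/- and 10.8 ± 1.31 in Mfn1&2-/-. All 11 oocyte markers were in the table and summed to 14594 to 16427 CPM in the Mfn2-/- libraries, above the 11302 to 14448 CPM of the 9 others. Of 14 granulosa markers 11 were in the table (Amh, Amhr2 and Foxl2 were not), and they summed to 1086 CPM in WT replicate 3 against 445.7 to 550.5 CPM in the other 11 libraries. WT replicate 3 held the highest value of 8 of these 11 markers. The sums rest largely on Serpine2, at 275.9 to 370.7 CPM over all libraries, and understate the spread of other markers. Gja1 had a median of 11.6 and a highest value of 183.6 CPM, Inhbb 5.11 and 155.4 CPM, and Inha 5.69 and 77.9 CPM. Nr5a2 (57.6 to 102.8 CPM) and Gata4 (25.6 to 54.4 CPM) varied less. Between Mfn2-/- and WT, edgeR called 3 of 11 oocyte markers higher (27.3%) and 5 of 11 granulosa markers lower (45.5%), beside 11.4% of all genes. There DESeq2 called 5 granulosa markers and limma-voom 0. Between Mfn1&2-/- and WT edgeR called 0 oocyte markers (3 at an unadjusted p below 0.05, 1 by DESeq2) and 3 granulosa markers, all lower. For these granulosa markers DESeq2 called 5 and limma-voom 1. The other WT libraries summed to 546.1 and 549.5 CPM of granulosa markers, and how far the granulosa calls rest on WT replicate 3 was not tested. The part of these markers in the results below was not tested. In such pools, fewer cells of a type and less RNA per cell cannot be told apart.

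Against WT, edgeR's quasi-likelihood test with Benjamini-Hochberg adjustment over all genes called 0 of the 10 genes in Mfn1-/-, 1 in Mfn2-/- (Bnip3l, lower) and 0 in Mfn1&2-/-. The background, the share of all genes called, was 0.228% in Mfn1-/-, 11.4% in Mfn2-/- and 4.21% in Mfn1&2-/-, so the 1 call of 10 in Mfn2-/- was a share near the background. At an unadjusted p below 0.05 the counts were 2 in Mfn1-/-, 1 in Mfn2-/- and 0 in Mfn1&2-/-, and DESeq2 and limma-voom called 0 of the 10 in Mfn1-/- and in Mfn1&2-/-. The median log2 fold change of the 10 was -0.09 in Mfn1-/-, -0.07 in Mfn2-/- and -0.07 in Mfn1&2-/-, beside -0.01, 0.01 and 0.00 over all genes tested. These 3 comparisons share the WT libraries. Below, values after ± are SD over 3 libraries for CPM and approximate standard errors for log2 fold changes, and adjusted p-values are from the same edgeR test.

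**Figure D1:**
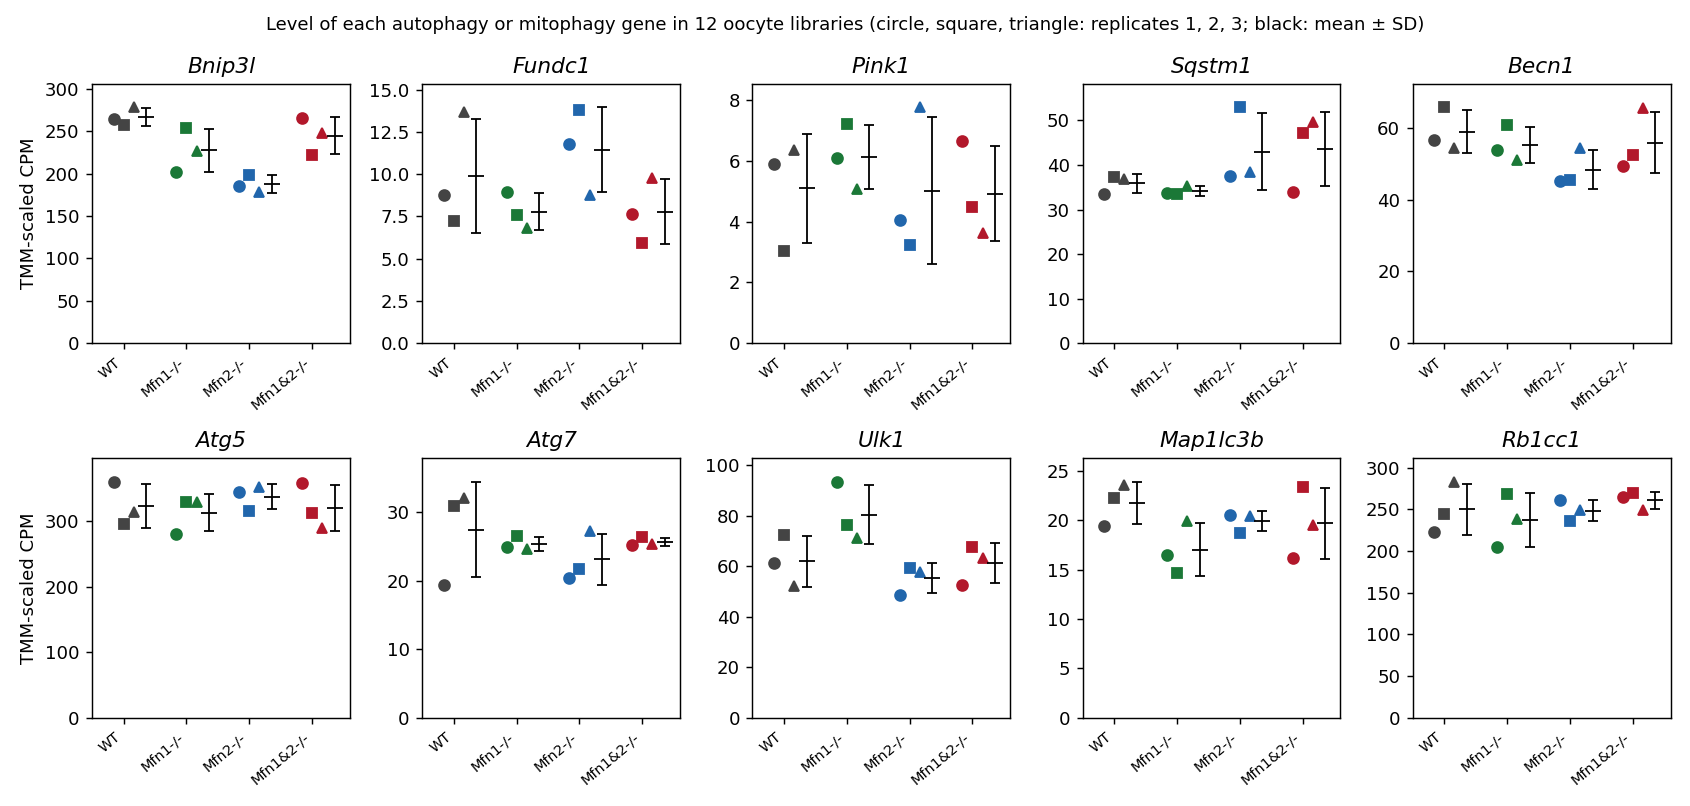
TMM-scaled CPM (y axis, linear, from 0) of each of the 10 genes in the 4 groups (x axis), with circle, square and triangle for replicates 1, 2 and 3 and black bars for mean ± SD. The 3 Mfn2-/- libraries of Bnip3l lie between 178.7 and 198.9 CPM, below its 9 other libraries, while for most other genes the groups overlap.

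Bnip3l, also called NIX, is an outer-membrane mitophagy receptor known for clearing mitochondria from maturing red blood cells. It maps to chromosome 14 (66985239 to 67008877, minus strand, GRCm38). A transcribed processed pseudogene, Bnip3l-ps, lies on chromosome 12 and was not among the genes counted. The sources used here do not say how reads matching both places were treated. The level of Bnip3l was 264.3, 257.6 and 278.3 CPM in the WT libraries. It was 202.3, 253.4 and 226.9 CPM in Mfn1-/-, 185.9, 198.9 and 178.7 CPM in Mfn2-/-, and 265.01, 221.6 and 247.4 CPM in Mfn1&2-/-. Every Mfn2-/- library lay below every other library, and the Mfn1&2-/- libraries overlapped with both Mfn1-/- and WT. The order of the group means was WT (266.7 ± 10.5 CPM), Mfn1&2-/- (244.7 ± 21.9), Mfn1-/- (227.5 ± 25.6) and Mfn2-/- (187.8 ± 10.2).

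Bnip3l fell in Mfn2-/- to 70.4% of WT (log2 fold change -0.51 ± 0.10, approximate 95% interval -0.72 to -0.30, edgeR adjusted p = 0.00432). The call was kept without each of the 12 libraries in turn, with log2 fold changes from -0.55 to -0.47. Without WT replicate 3, the library with high granulosa markers, it was -0.47 (edgeR adjusted p = 0.0204). In Mfn1-/- the difference from WT was -0.23 ± 0.10 (interval -0.44 to -0.02) and did not pass (edgeR adjusted p = 0.340), although the 3 Mfn1-/- libraries lay below the 3 WT libraries. In Mfn1&2-/- the difference from WT was -0.12 ± 0.10 (interval -0.33 to 0.08, edgeR adjusted p = 0.558).

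With both mitofusins lost, Bnip3l was higher than with Mfn2 lost alone. It stood at 130.3% of Mfn2-/- in Mfn1&2-/- (0.38 ± 0.10, interval 0.17 to 0.59, edgeR adjusted p = 0.0232), and the groups did not overlap. It was the only one of the 10 genes called in that comparison, in which 10.2% of all genes were called. The call was lost without Mfn2-/- replicate 1 or 3 and without Mfn1&2-/- replicate 1 or 3, where the edgeR adjusted p reached 0.0856. The log2 fold changes of the Mfn1-/- and Mfn2-/- groups summed to -0.74, against the -0.12 measured in Mfn1&2-/-. That difference is the interaction of the losses, 0.61 ± 0.14 (interval 0.31 to 0.91, edgeR adjusted p = 0.0265), and Bnip3l was the only member called in it, beside 4.13% of all genes. The interaction call was lost without WT replicate 3 (adjusted p = 0.0589), Mfn1-/- replicate 1 (0.0657), Mfn2-/- replicate 3 (0.0731) or Mfn1&2-/- replicate 1, where the adjusted p was at the threshold, while its log2 value ran from 0.52 to 0.70.

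**Figure D2:**
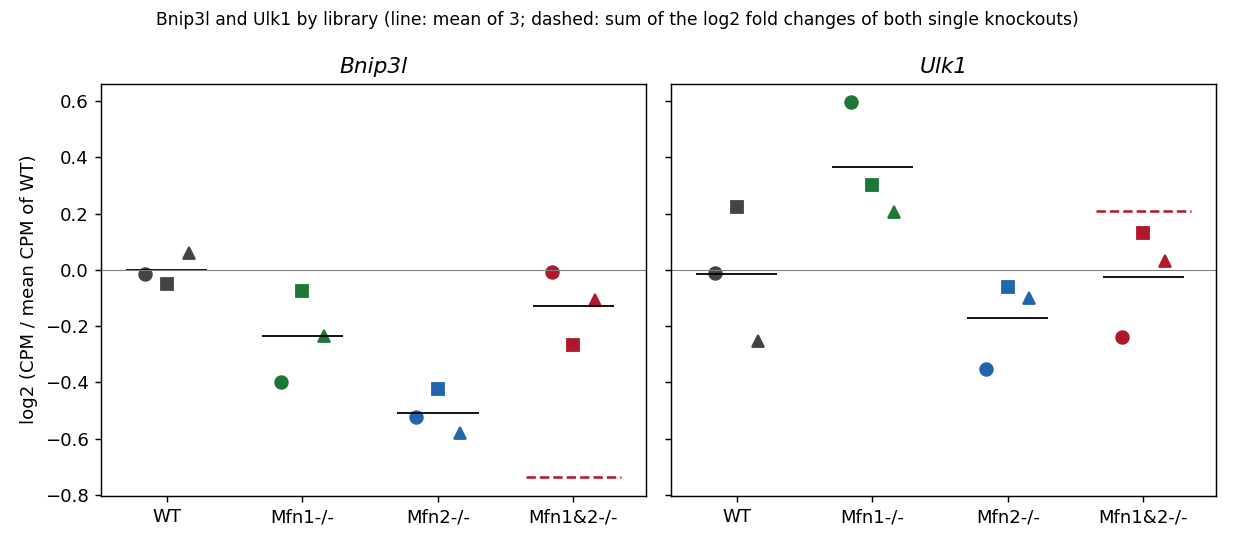
Level of Bnip3l and Ulk1 in each library as log2 of CPM over the mean CPM of WT (y axis) by group (x axis), with circle, square and triangle for replicates 1, 2 and 3, a line at the mean of each group and a dashed line at the sum of the Mfn1-/- and Mfn2-/- log2 fold changes. For Bnip3l all 3 Mfn1&2-/- libraries lie above the dashed line at -0.74, and for Ulk1 the Mfn1-/- libraries lie above all Mfn2-/- libraries.

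Fundc1 encodes an outer-membrane mitophagy receptor of hypoxic cells and lies on chromosome X (17556564 to 17572325, minus strand). Its level was 8.78, 7.25 and 13.7 CPM in WT, 8.95, 7.59 and 6.83 CPM in Mfn1-/-, 11.8, 13.8 and 8.77 CPM in Mfn2-/-, and 7.66, 5.92 and 9.76 CPM in Mfn1&2-/-. All groups overlapped with WT, whose replicate 3 stood above the other WT libraries. The log2 difference from WT was -0.35 ± 0.30 in Mfn1-/- (interval -0.98 to 0.28), 0.21 ± 0.29 in Mfn2-/- (-0.42 to 0.83) and -0.35 ± 0.30 in Mfn1&2-/- (-0.98 to 0.28). None passed (edgeR adjusted p = 0.665, 0.713 and 0.588), and the counts were low, at 82 to 177 per library. Without WT replicate 3 the 3 differences were -0.04, 0.51 and -0.05, and none passed (edgeR adjusted p = 0.979, 0.370 and 0.962).

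Pink1 encodes the kinase that accumulates on damaged mitochondria and activates parkin. It lies on chromosome 4 (138313409 to 138326307, minus strand), 9.55 Mb from Mfn2. It had the lowest level of the 10, at 5.91, 3.04 and 6.35 CPM in WT, 6.09, 7.21 and 5.08 CPM in Mfn1-/-, 4.06, 3.24 and 7.76 CPM in Mfn2-/-, and 6.65, 4.47 and 3.63 CPM in Mfn1&2-/-. The spread within each group was as wide as the differences between them. The log2 difference from WT was 0.27 ± 0.40 in Mfn1-/- (interval -0.59 to 1.13), -0.02 ± 0.41 in Mfn2-/- (-0.88 to 0.84) and -0.05 ± 0.41 in Mfn1&2-/- (-0.92 to 0.81), with edgeR adjusted p = 0.825, 0.986 and 0.963. Counts were low, at 36 to 116 per library, and changes within those intervals could have gone unseen in these pools.

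Sqstm1 encodes p62, which carries ubiquitinated cargo to LC3 and is itself degraded by autophagy. It lies on chromosome 11 (50199366 to 50210827, minus strand) and overlaps exons of Mrnip on the other strand by 580 bases. The sources used here do not give the strand setting of the counting, so its level is uncertain to that extent. It was at 33.5, 37.4 and 36.8 CPM in WT and at 33.7, 33.5 and 35.4 CPM in Mfn1-/-, a narrow range over 6 libraries. It was at 37.6, 53.0 and 38.5 CPM in Mfn2-/- and at 34.0, 47.1 and 49.6 CPM in Mfn1&2-/-. All 3 Mfn2-/- libraries lay above all WT libraries, by as little as 37.6 against 37.4 CPM, whereas Mfn1&2-/- overlapped with WT.

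The log2 difference of Sqstm1 from WT was 0.26 ± 0.17 in Mfn2-/- (interval -0.10 to 0.62, edgeR adjusted p = 0.358) and 0.28 ± 0.17 in Mfn1&2-/- (-0.08 to 0.64, edgeR adjusted p = 0.413). In Mfn1-/- it was -0.07 ± 0.17 (edgeR adjusted p = 0.899). Averaged over both Mfn1 states, the libraries without Mfn2 differed from those with it by 0.31, with an unadjusted p of 0.0217 and an edgeR adjusted p of 0.112, in a comparison that called 12.4% of all genes. Without Mfn1&2-/- replicate 1 this averaged difference was 0.38 (edgeR adjusted p = 0.0373), and without each of the 11 other libraries it was not called.

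Ulk1 encodes the kinase that starts autophagosome formation and is held in check by mTORC1. The gene is on chromosome 5 (110784488 to 110810097, minus strand). Its level was 61.4, 72.4 and 52.0 CPM in WT, 93.6, 76.2 and 71.4 CPM in Mfn1-/-, 48.5, 59.4 and 57.8 CPM in Mfn2-/-, and 52.4, 67.8 and 63.4 CPM in Mfn1&2-/-. The Mfn1-/- libraries lay above those of Mfn2-/- and Mfn1&2-/- without overlap, but 1 WT library (72.4 CPM) reached above the lowest Mfn1-/- library (71.4 CPM).

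Ulk1 was higher in Mfn1-/- than in Mfn2-/-, at 145.6% (0.54 ± 0.15, interval 0.22 to 0.87, edgeR adjusted p = 0.0295). It was the only one of the 10 called in that comparison, in which 13.3% of all genes were called. The call was lost without Mfn1-/- replicate 1 or 2 and without Mfn2-/- replicate 1 or 3, where the edgeR adjusted p reached 0.116. Against WT the difference was 0.38 ± 0.15 in Mfn1-/- (interval 0.05 to 0.70), with an unadjusted p of 0.0266 and an edgeR adjusted p of 0.317. It was -0.17 ± 0.15 in Mfn2-/- (edgeR adjusted p = 0.544) and -0.02 ± 0.15 in Mfn1&2-/- (edgeR adjusted p = 0.971). Mfn1&2-/- stood below Mfn1-/- by -0.39 ± 0.15, which did not pass (edgeR adjusted p = 0.154). The interaction was -0.23 (edgeR adjusted p = 0.592).

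The promoter of Ulk1 is shown because Ulk1 was called between the Mfn1-/- and Mfn2-/- groups. The 250 bases upstream of its RefSeq start (GRCm38.p6, chr5:110810082-110810331, minus strand) read 5′ to 3′ as follows, with each copy of the GC box GGGCGG, on either strand, in capitals.
Ulk1: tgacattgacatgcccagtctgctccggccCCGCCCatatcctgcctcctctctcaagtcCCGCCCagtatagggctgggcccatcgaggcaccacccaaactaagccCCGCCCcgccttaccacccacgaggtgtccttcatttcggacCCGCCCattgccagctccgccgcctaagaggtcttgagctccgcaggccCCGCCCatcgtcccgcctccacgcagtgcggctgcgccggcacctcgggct
It held 5 copies of GGGCGG, a motif chosen after the sequence was seen. Of 32851 RefSeq promoters of the same length, 32.7% held at least 1 copy on either strand. The share with 5 copies was not counted, so whether 5 is many was not tested. Promoters matched for 7 of the 10 genes. Bnip3l, Becn1 and Rb1cc1 had none, so the member called against WT was not searched. GGGCGG was in 5 of the 7: Ulk1 with 5 copies, Sqstm1 with 3, and Pink1, Map1lc3b and Atg5 with 1 each. CACGTG, the core letters bound by TFEB and related factors, was in 2 of the 7, Atg5 and Atg7, against 6.02% of all promoters. The shorter ACGTG, which overlaps CACGTG, was in the same 2 of the 7, against 16.6% of all promoters. GTAAACA (a forkhead motif, 3.17% of all promoters) and TGACNNNGC (an antioxidant response motif, 10.2%) were in 0 of the 7, searched on both strands.

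Rb1cc1 encodes FIP200, the scaffold of the ULK1 complex. The gene is on chromosome 1 (6206197 to 6276648, plus strand) and overlaps exons of 4732440D04Rik on the other strand by 558 bases. Its level was 222.7, 243.7 and 283.1 CPM in WT, 204.1, 268.6 and 237.8 CPM in Mfn1-/-, 260.5, 235.9 and 248.8 CPM in Mfn2-/-, and 264.1, 269.3 and 249.3 CPM in Mfn1&2-/-. All groups overlapped. The log2 difference from WT was -0.08 ± 0.11 in Mfn1-/- (interval -0.31 to 0.15), -0.01 ± 0.11 in Mfn2-/- (-0.24 to 0.22) and 0.06 ± 0.11 in Mfn1&2-/- (-0.17 to 0.29), with edgeR adjusted p = 0.810, 0.975 and 0.825.

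Becn1 encodes beclin 1 of the class III PI3-kinase complex, which nucleates the phagophore. It lies on chromosome 11 (101285952 to 101302286, minus strand). Its exons overlap those of Cntd1 on the other strand by 1297 bases, and reads of the pair cannot be told apart without strand. Its level was 56.5, 65.7 and 54.5 CPM in WT, 53.7, 60.7 and 51.0 CPM in Mfn1-/-, 45.1, 45.4 and 54.5 CPM in Mfn2-/-, and 49.4, 52.5 and 65.4 CPM in Mfn1&2-/-. In Mfn2-/- 2 of the 3 libraries lay below all WT libraries, and the highest was level with the lowest WT library to the digits given. The log2 difference from WT was -0.28 ± 0.14 in Mfn2-/- (interval -0.59 to 0.02, edgeR adjusted p = 0.226), -0.09 ± 0.14 in Mfn1-/- (edgeR adjusted p = 0.825) and -0.08 ± 0.14 in Mfn1&2-/- (edgeR adjusted p = 0.837).

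Atg5 and Atg7 belong to the conjugation system, ATG7 as its E1-like activating enzyme and ATG5 as part of the complex that places LC3 on lipid. Atg5 lies on chromosome 10 (44268358 to 44364291, plus strand) and was the member with the highest level in CPM. It stood at 360.7, 295.3 and 313.8 CPM in WT, 280.5, 329.9 and 329.8 CPM in Mfn1-/-, 345.2, 315.6 and 352.3 CPM in Mfn2-/-, and 358.3, 312.6 and 289.4 CPM in Mfn1&2-/-. Its coefficient of variation over all 12 libraries, 8.36%, was the smallest of the set, and its log2 differences from WT lay between -0.04 and 0.06, each ± 0.11. The intervals reached from -0.27 in Mfn1-/- to 0.29 in Mfn2-/-, which bounds the change that these pools could have hidden.

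Atg7 lies on chromosome 6 (114643097 to 114860614, plus strand). It was at 19.4, 30.9 and 32.1 CPM in WT, at 24.9, 26.5 and 24.6 CPM in Mfn1-/-, at 20.3, 21.7 and 27.2 CPM in Mfn2-/-, and at 25.3, 26.3 and 25.4 CPM in Mfn1&2-/-. The WT libraries, from 19.4 to 32.1 CPM, enclosed every library of the 3 other groups. The log2 difference from WT was -0.11 ± 0.19 in Mfn1-/-, -0.25 ± 0.19 in Mfn2-/- (interval -0.66 to 0.16) and -0.10 ± 0.19 in Mfn1&2-/-, with edgeR adjusted p = 0.841, 0.452 and 0.847.

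Map1lc3b encodes LC3B, the ubiquitin-like protein joined to autophagosome lipids. It lies on chromosome 8 (121590361 to 121598760, plus strand) and overlaps exons of Zcchc14 on the other strand by 58 bases. Its level was 19.4, 22.3 and 23.6 CPM in WT, 16.5, 14.6 and 19.9 CPM in Mfn1-/-, 20.5, 18.8 and 20.5 CPM in Mfn2-/-, and 16.2, 23.4 and 19.5 CPM in Mfn1&2-/-. Below all WT libraries lay 2 of the 3 libraries in Mfn1-/-, 1 in Mfn2-/- and 1 in Mfn1&2-/-, and each group overlapped with WT. The log2 difference from WT was -0.36 ± 0.19 in Mfn1-/- (interval -0.76 to 0.05, edgeR adjusted p = 0.454), -0.13 ± 0.19 in Mfn2-/- (edgeR adjusted p = 0.727) and -0.14 ± 0.19 in Mfn1&2-/- (edgeR adjusted p = 0.763).

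**Figure D3:**
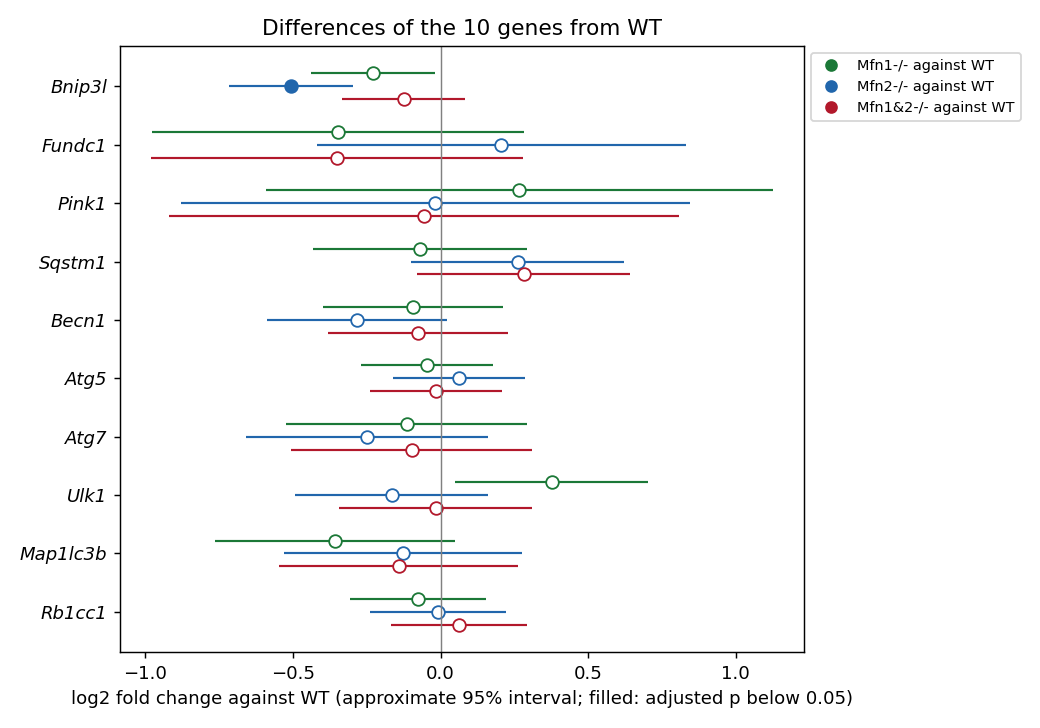
Log2 fold change against WT (x axis) of the 10 genes (y axis) in Mfn1-/-, Mfn2-/- and Mfn1&2-/- (colours), with bars for approximate 95% intervals and a filled point where the edgeR adjusted p is below 0.05. The only filled point is Bnip3l in Mfn2-/- at -0.51, and the intervals of Pink1 and Fundc1, the members with the fewest counts, are the widest.

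Across the set, libraries of the groups compared did not overlap for 1 gene in Mfn1-/- against WT (Bnip3l), 2 in Mfn2-/- (Bnip3l and Sqstm1) and 0 in Mfn1&2-/-, beside 18.1%, 32.0% and 22.1% of all genes. Between Mfn1-/- and Mfn2-/- it was 3 of 10 (Bnip3l, Sqstm1 and Ulk1), beside 33.9% of all genes. When the 4 groups were ordered by mean, no neighbouring groups differed at an edgeR adjusted p below 0.05 in any of the 10 genes. Bnip3l between Mfn1-/- and Mfn2-/- came nearest (0.28 ± 0.10, edgeR adjusted p = 0.0756). Mfn1&2-/- did not overlap with Mfn1-/- for 1 of the 10 (Ulk1, beside 26.0% of all genes), nor with Mfn2-/- for 1 (Bnip3l, beside 31.5%). Between Mfn1&2-/- and Mfn1-/- edgeR called 0 members (1 at an unadjusted p below 0.05, 0 by DESeq2 or limma-voom), beside 5.36% of all genes. For Mfn1 loss averaged over both Mfn2 states it called 0 (2 at an unadjusted p below 0.05, 0 by DESeq2 or limma-voom), beside 4.40%. For Mfn2 loss averaged over both Mfn1 states it called 0 (3 at an unadjusted p below 0.05, 1 by DESeq2, 0 by limma-voom), beside 12.4%. Those 3 were Bnip3l (-0.20), Ulk1 (-0.28) and Sqstm1 (0.31), with edgeR adjusted p = 0.073, 0.109 and 0.112.

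Levels can be compared between the genes only per transcript length. In CPM per kilobase of the principal transcript, WT levels were 137.4 ± 14.3 for Atg5, 82.4 ± 3.25 for Bnip3l and 32.8 ± 4.03 for Rb1cc1. They were 17.6 ± 1.04 for Sqstm1, 13.5 ± 1.38 for Becn1, 11.9 ± 1.95 for Ulk1, 8.60 ± 0.852 for Map1lc3b, 7.30 ± 1.86 for Atg7, 5.00 ± 1.70 for Fundc1 and 2.15 ± 0.757 for Pink1. On this scale Bnip3l was thus the more abundant of the mitophagy receptors in the set, and the parkin activator Pink1 the least abundant gene. With the union of all exons as the length, Atg5, Bnip3l and Rb1cc1 held the same ranks, whereas Map1lc3b went from rank 7 to rank 9.

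The genes whose pattern over the 12 libraries was most like that of Bnip3l were Tdrkh (r = 0.945), Gins2 (r = 0.942) and Canx (r = 0.939), by Pearson's r of log2(CPM + 1) among 8763 genes with a mean of at least 5 CPM. The libraries share their groups and depth, so these values describe likeness only. Tdrkh encodes a Tudor protein of the mitochondrial piRNA machinery, Gins2 a subunit of the replicative helicase and Canx an ER chaperone. Mean CPM in WT, Mfn1-/-, Mfn2-/- and Mfn1&2-/- was 159.7, 145.7, 116.9 and 150.8 for Tdrkh. It was 99.9, 74.4, 52.0 and 75.6 for Gins2, and 657.0, 537.4, 437.8 and 611.3 for Canx. Chosen for their likeness to Bnip3l, all 3 had their lowest mean in Mfn2-/-.

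To place the 10 genes among their pathway, 97 genes were listed by step, of which 89 were in the table, 79 of them outside the set. Of these 79, edgeR called 0 in Mfn1-/- (6 at an unadjusted p below 0.05, 1 by DESeq2, 0 by limma-voom). It called 6 in Mfn2-/- (7.59%, 3 higher and 3 lower, beside 11.4% of all genes) and 5 in Mfn1&2-/- (6.33%, all higher, beside 4.21%). The median log2 fold change of all 89 was -0.03, 0.03 and -0.02 in the 3 comparisons, beside -0.01, 0.01 and 0.00 over all genes. No gene of the initiation complex (5 measured), the conjugation machinery (9) or the LC3 and GABARAP proteins (5) was called against WT by edgeR, DESeq2 or limma-voom. At an unadjusted p below 0.05, the initiation complex had 1, 0 and 0 genes in Mfn1-/-, Mfn2-/- and Mfn1&2-/-, the conjugation machinery 2, 1 and 3, and the LC3 and GABARAP proteins 0, 2 and 0.

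In Mfn2-/-, Usp8, a deubiquitinase that acts on parkin and on endosomes, fell from 322.1 ± 93.5 to 155.7 ± 9.21 CPM (-1.05 ± 0.16, edgeR adjusted p = 0.000951). It stood at 337.4 ± 20.5 CPM in Mfn1&2-/-, above every Mfn2-/- library. In WT it was highest in replicate 3 (429.1 CPM against 256.04 and 281.1), and without that library the difference in Mfn2-/- was -0.79 (edgeR adjusted p = 0.00207). It was the only call among the 13 measured genes of the PINK1 and parkin pathway in Mfn2-/-. Nbr1, a cargo receptor related to Sqstm1, fell from 293.1 ± 8.84 to 222.9 ± 11.9 CPM (-0.39 ± 0.10, edgeR adjusted p = 0.0147), as the only call of 9 cargo receptors. Bnip3l was the only call of 6 mitophagy receptors.

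Among nucleation, fusion and lysosome genes 3 rose and 1 fell in Mfn2-/-. Atg14, the BECN1 partner that directs the PI3-kinase complex to autophagy, rose from 90.0 ± 14.0 to 131.9 ± 8.48 CPM (0.55 ± 0.14, edgeR adjusted p = 0.0177), the only call of 8 class III PI3-kinase genes. Of 13 fusion genes, Vps11, a core subunit of the HOPS tether, rose from 29.2 ± 3.84 to 49.7 ± 0.876 CPM (0.76 ± 0.16, edgeR adjusted p = 0.00603). Rab7, the late-endosome GTPase, fell from 314.3 ± 53.3 to 205.9 ± 33.4 CPM (-0.61 ± 0.15, edgeR adjusted p = 0.0193). Lamp2, a lysosomal membrane protein, rose from 7.89 ± 2.06 to 15.0 ± 1.04 CPM (0.93 ± 0.26, edgeR adjusted p = 0.0309), the only call of 11 lysosome and TFEB-family genes.

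Usp8 and Vps11 kept their calls without each library. Atg14 lost its call without WT replicate 2 or Mfn2-/- replicate 1 or 3, and Nbr1 without WT replicate 3 or Mfn2-/- replicate 2. Rab7 lost its call without WT replicate 2 or 3 or Mfn2-/- replicate 2 or 3. Lamp2 lost it without WT replicate 1 or 3 or any of the Mfn2-/- replicates.

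In Mfn1&2-/- other genes were called, all higher. Pik3r4, the regulatory subunit of the class III PI3-kinase, rose from 524.8 ± 19.3 to 659.5 ± 49.3 CPM (0.33 ± 0.09, edgeR adjusted p = 0.0448). Atg9a, the scramblase on vesicles that seed the phagophore, rose from 33.3 ± 10.1 to 57.0 ± 9.51 CPM (0.78 ± 0.20, edgeR adjusted p = 0.0370). Usp15, a deubiquitinase that opposes parkin, rose from 649.8 ± 40.5 to 842.9 ± 20.9 CPM (0.38 ± 0.10, edgeR adjusted p = 0.0427).

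Atp6v1a, a subunit of the proton pump that acidifies lysosomes, rose in Mfn1&2-/- from 51.5 ± 1.89 to 72.2 ± 5.33 CPM (0.49 ± 0.12, edgeR adjusted p = 0.0367). Mitf, a transcription factor of the TFEB family, rose from 19.4 ± 3.65 to 30.2 ± 1.09 CPM (0.64 ± 0.17, edgeR adjusted p = 0.0458). In Mfn1-/- Mitf stood at 34.2 ± 1.47 CPM, a difference from WT of 0.82 ± 0.17 that edgeR did not call (adjusted p = 0.0635) and DESeq2 did. All 5 calls were lost without some libraries: 0 pathway genes were called in Mfn1&2-/- without WT replicate 3, and 0 without Mfn2-/- replicate 3. Mitf kept its call only without WT replicate 1, and Pik3r4 only without Mfn2-/- replicate 1 or 2 or Mfn1&2-/- replicate 3. Atg9a lost it without WT replicate 3, Mfn1-/- replicate 2, Mfn2-/- replicate 3 or Mfn1&2-/- replicate 2 or 3. Usp15 and Atp6v1a lost it without any of the WT replicates, without Mfn2-/- replicate 3 and without Mfn1&2-/- replicate 2 or 3. Usp15 also lost it without Mfn1-/- replicate 3 or Mfn1&2-/- replicate 1, and Atp6v1a without Mfn1-/- replicate 1.

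**Figure D4:**
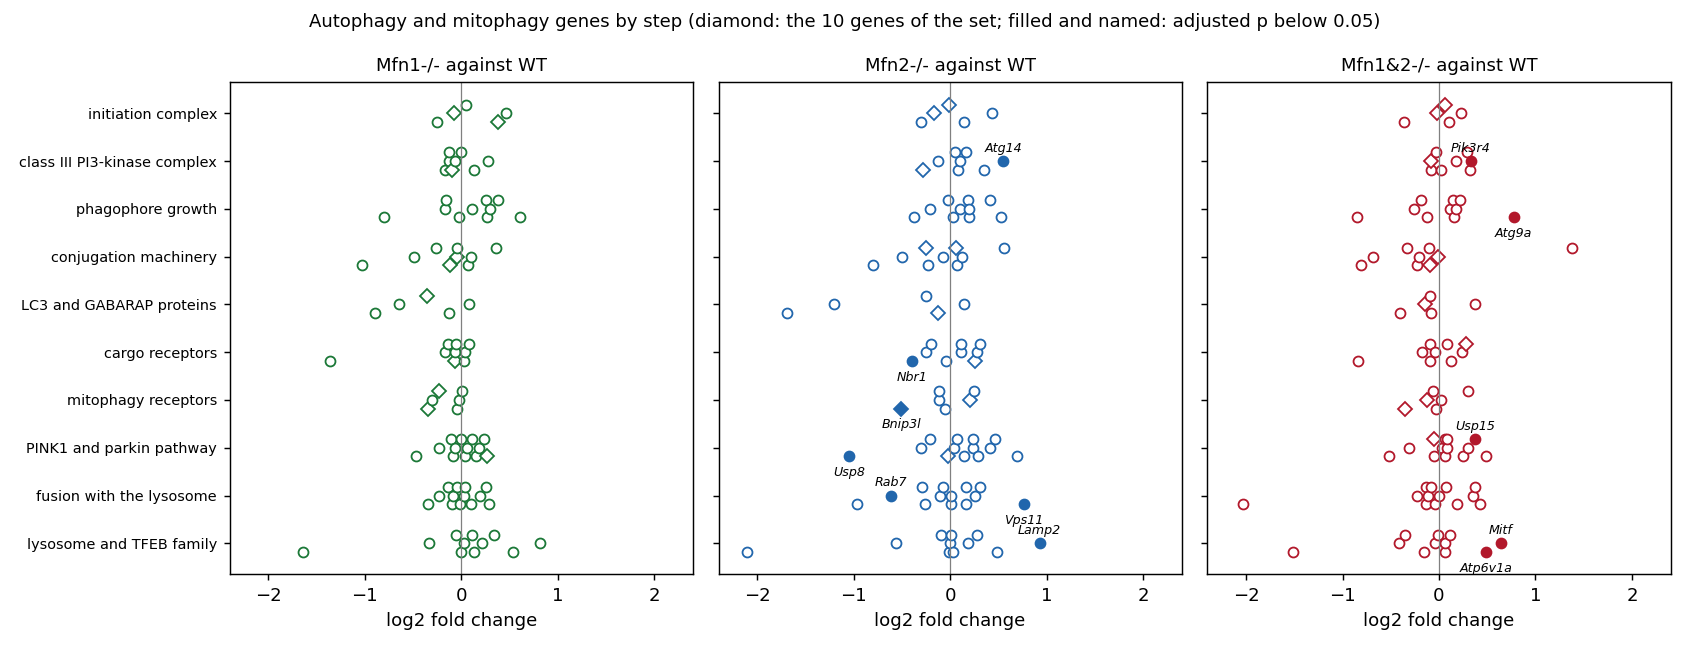
Log2 fold change against WT (x axis) of the 89 measured pathway genes by step (y axis), with 1 panel per comparison, diamonds for the 10 genes of the set, and filled, named points where the edgeR adjusted p is below 0.05. No point is filled in Mfn1-/-, 7 are in Mfn2-/- (3 higher, 4 lower) and 5 are in Mfn1&2-/- (all higher).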

How the data were processed

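Total RNA of 12 pools was extracted with a PicoPure kit and made into stranded SMARTer libraries after removal of ribosomal RNA, read as 100-base paired ends, per the labels. STAR 2.7.0a, FastQC 0.11.7, edgeR and the genome mm10 are named in the submitters' processing notes. The authors deposited raw counts per gene, in which every gene was above 1 CPM in at least 3 libraries. Their second deposited table is a signal, CPM scaled by TMM factors, which equalled TMM-scaled CPM computed here within a relative 5.1e-15. The sources used here give neither the annotation nor the strand setting.

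Groups came from the labels. For 1 pool the genotype is spelled "Mn2-/-", and its description placed it in Mfn2-/-. Counts were fitted with edgeR 4.0.16 (R 4.3.3) by quasi-likelihood after TMM scaling. Each group had 1 mean, and the 12 libraries left 8 residual degrees of freedom. No gene of 11385 was removed by filterByExpr, and Benjamini-Hochberg adjustment ran over all of them, with 0.05 as the threshold. There were 9 comparisons: the 6 pairs of groups, the interaction, and each loss averaged over the states of the other gene. Standard errors are the absolute log2 fold change over the square root of F. The fit was tested on simulated data. Alternatives were RLE scaling, library size only, DESeq2 1.42.0, limma-voom (limma 3.58.1), a replicate block, a fit of only the groups compared, no filter, a filter of at least 5 CPM in 3 libraries, and each library left out.

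All 10 genes are named, as is each other listed gene called against WT, and for a member called against WT the 3 most alike genes. The members and lists were chosen with earlier results of these data known. Positions and LC3-interacting codons are from GENCODE vM21 (GRCm38), promoters from RefSeq. Counting floors cover counting error only.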

Additional observations from a re-analysis of the deposited data

Results flagged for a closer look

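For 3 autophagy or mitophagy genes the effect of losing Mfn2 differed with the state of Mfn1, tested as the interaction of the losses with edgeR's quasi-likelihood test and adjusted over all genes. These are 3.37% of the 89 measured pathway genes, beside 4.13% of all genes called in the interaction. Bnip3l had an interaction of 0.61 on the log2 scale (adjusted p = 0.0265), with Mfn2 loss at -0.51 beside intact Mfn1. The call was lost in 4 of 12 fits that left out 1 library and with the replicate block (edgeR adjusted p = 0.0533). Usp8 had an interaction of 1.23 ± 0.23 (edgeR adjusted p = 0.0110), and the call was kept without each library, with 0.96 without WT replicate 3 (edgeR adjusted p = 0.0128). Lamp2 had an interaction of -1.40 ± 0.37 (edgeR adjusted p = 0.0458), but the call was kept in only 3 of 12 such fits and was lost with the replicate block (edgeR adjusted p = 0.0646).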

How the results depend on the processing

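The lower Bnip3l level in Mfn2-/- was called without each library (edgeR adjusted p 0.00237 to 0.0225) and under each of 8 other settings (5.57e-05 to 0.0117). Among these, the setting without a filter repeated the main fit, since filterByExpr had removed no gene. The labels do not say whether replicate numbers pair the libraries. Same-numbered libraries had correlations of -0.134 to 0.179, differently numbered ones -0.26 to 0.183, and 6 of 12 libraries correlated best with their own number. Such weak correlations cannot decide whether the libraries were paired. The numbers in the sample descriptions were not tried. With the replicate block, the members called in the interaction went from 1 to 0 (Bnip3l 0.61, edgeR adjusted p = 0.0533), and the pathway genes called in Mfn1&2-/- against WT from 5 to 0. That count was 3 with RLE scaling and 1 with only the groups compared, and ran from 0 to 4 without single libraries. For Mfn2-/- against WT, where all libraries gave 7, it ran from 4 to 7 without single libraries. Under the other settings it ran there from 7 to 10, the highest with library size only. For Mfn1-/- against WT, DESeq2 gave 1 in place of 0. Without single libraries, the members called ran from 0 to 1 in Mfn1&2-/- against Mfn2-/-, in Mfn1-/- against Mfn2-/- and in the interaction, and from 0 to 2 for the averaged Mfn2 loss. Library size only and DESeq2 each called 2 members in Mfn1-/- against Mfn2-/- (Bnip3l beside Ulk1) and 1 for the averaged Mfn2 loss (Bnip3l). Among the members and Usp8, some log2 values changed sign without 1 library by more than their standard error, none of them called. They were Usp8 in Mfn1-/- against WT (-0.25 to 0.15) and Rb1cc1 in Mfn1-/- against WT (-0.18 to 0.033). The others were Rb1cc1 in Mfn1-/- against Mfn2-/- (-0.17 to 0.046) and Pink1 in Mfn1&2-/- against Mfn2-/- (-0.31 to 0.43). Smaller changes of sign are not listed, as for Atg7 in Mfn1-/- against WT (-0.11 with all libraries, 0.01 without WT replicate 3). The sign turned without WT replicate 3 or Mfn1-/- replicate 1 for Usp8 and for Rb1cc1 against WT, without Mfn1-/- replicate 1 for Rb1cc1 against Mfn2-/-, and without Mfn2-/- replicate 3 or Mfn1&2-/- replicate 2 or 3 for Pink1. The cause of these changes was not tested.

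Scaling by library size only moved the share of higher calls over all genes from 39.7% to 49.8% in Mfn2-/- against WT, from 51.5% to 38.5% in Mfn1&2-/- against Mfn1-/-, from 60.1% to 48.2% against Mfn2-/-, and from 70.9% to 46.3% in the interaction, whose median went from -0.01 to -0.12 (Bnip3l 0.50, edgeR adjusted p = 0.0413). Genes called in Mfn1-/- against WT numbered 26, from 3 to 51 without single libraries and from 13 to 224 under the other settings. In Mfn2-/- they numbered 1297 (708 to 1429 and 1082 to 1690), and in Mfn1&2-/- 479 (282 to 550 and 323 to 834). In the comparisons between knockouts they numbered 610 for Mfn1&2-/- against Mfn1-/- (295 to 689 and 512 to 1044), 1163 against Mfn2-/- (570 to 1302 and 965 to 1570) and 1515 for Mfn1-/- against Mfn2-/- (873 to 1673 and 1331 to 1887). The interaction had 470 (160 to 464 and 276 to 902), the averaged Mfn1 loss 501 (228 to 592 and 353 to 875) and the averaged Mfn2 loss 1408 (1018 to 1386 and 1212 to 1737). Among the 10 genes, Pink1 and Fundc1 had the fewest counts and the widest intervals.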

Other observations

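When libraries were compared 6 against 6, each loss averaged over the states of the other gene, further pathway genes passed edgeR's quasi-likelihood test. With Mfn2 lost, 11 of 89 measured pathway genes were called, 8 higher and 3 lower, beside 12.4% of all genes. Fbxo7, a partner of PINK1 and parkin, rose (0.55 ± 0.13, edgeR adjusted p = 0.0147), as did Plekhm1, an adaptor between autophagosome and lysosome (0.33 ± 0.07, edgeR adjusted p = 0.00830). Both kept the call without each library, as did Usp15 (0.28 ± 0.07) and Vps11 (0.47 ± 0.11). The other 7 lost the call without some libraries: of 12 fits that left out 1 library it was kept in 2 for Nbr1, Pik3r4 and Atp6v1a, 4 for Atg9a, 5 for Tollip, 8 for Vamp8 and 11 for Usp8. With Mfn1 lost, 3 of 89 were called, beside 4.40% of all genes. Mitf rose (0.73 ± 0.12, edgeR adjusted p = 0.00425) and kept the call without each library. Atg12, the ubiquitin-like protein joined to ATG5, fell (-0.27 ± 0.07, edgeR adjusted p = 0.0339), but kept the call in only 2 of 12 such fits. Usp8, the third call, was higher (edgeR adjusted p = 0.0232). Its call was lost without WT replicate 2, Mfn1-/- replicate 2, Mfn2-/- replicate 3 or Mfn1&2-/- replicate 3. Without Mfn1-/- replicate 3 the edgeR adjusted p of Usp8 lay just under the threshold. In Mfn1-/- against WT it was not called (-0.11, edgeR adjusted p = 0.817). It stood at 155.7 ± 9.21 CPM in Mfn2-/- and at 337.4 ± 20.5 CPM in Mfn1&2-/-, so the average describes neither state of Mfn2. Fbxo7, Plekhm1 and Atg12 were chosen after their values were seen.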
